A study of Mus musculus with 18 samples.

Results

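The genes described here are 10 genes of the stromal extracellular matrix and of the contractile apparatus, found by their symbols among the 24346 genes listed for each library: Mgp, Srpx2, Dcn, Lum, Postn, Sparc, Thy1, Acta2, Tagln and Fbn1. Mgp and Srpx2 were chosen by their large fall in the Tsix-stop KO at D15, so their values in that contrast are a description without a test. RNA-seq was made from female hybrid mouse embryonic stem (ES) cells with and without a deletion in Kdm6a, which encodes a histone H3K27 demethylase. The study asked what loss of this enzyme does at the onset of X chromosome inactivation, and 18 libraries from 10 groups were used here.

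Tsix-stop cells come from a hybrid cross whose alleles were read against the authors' pseudo-129 and pseudo-cast genomes. The wt, KO and control cells alike carry a transcriptional stop in Tsix on the pseudo-129 X chromosome, so that this X is the one that becomes inactive. They were sampled as ES cells (D0) and after 15 days of differentiation as embryoid bodies (D15), with 2 wt and 2 KO libraries each day. The KO libraries come from 2 clones that lack exons 2 to 4 of Kdm6a on both alleles. A single CRISPR control clone, treated but not edited, gave 1 library each day. E8 cells come from a BL6 x cast cross without the Tsix stop, and wt and Kdm6a KO libraries were labelled D7 and D15, 2 per genotype and day. The study's methods describe E8 RNA-seq at earlier days only, from 1 KO clone with a promoter deletion, so the days of these E8 libraries rest on the labels alone, and their clone, and whether they are separate cultures, is not given. All cells were grown on inactivated mouse embryonic fibroblasts (MEFs), the stromal cells that support ES cells, before differentiation without LIF.

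Connective tissue cells lay down a matrix of fibrillar collagens, proteoglycans and elastic microfibrils, and the smooth muscle and myofibroblast forms of these cells add a contractile actin cytoskeleton. Mgp encodes matrix Gla protein, a vitamin K-dependent inhibitor of calcification that binds bone morphogenetic proteins, and Srpx2 encodes a secreted sushi-repeat protein that binds the urokinase receptor. Dcn and Lum encode the small leucine-rich proteoglycans decorin and lumican, Postn and Sparc encode the matricellular proteins periostin and osteonectin, and Fbn1 encodes fibrillin-1 of the microfibrils. Acta2 and Tagln encode smooth muscle actin and transgelin, and Thy1 encodes a cell surface protein carried by fibroblasts and other cells.

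The Tsix-stop libraries held between 51091148 and 68796172 counts, which makes 3 counts, the floor used here for a gene not seen, worth 0.0449 to 0.0545 CPM (counts scaled to library size). Libraries of the same group differed by more than sampling noise. Whole-gene counts of Kdm6a, which include exons outside the deletion, were 94.8 and 27.6 CPM in the KO at D15 against 132 and 105 CPM in the wt, so they check the labels only in part. The control stood at 94.7 CPM at D15, close to the higher KO library and below both wt libraries, and at 128.9 CPM at D0, where the KO held 132.1 and 49.6 CPM and the wt 138.7 and 211 CPM. In E8 the KO libraries held at most 0.0319 TPM (transcript levels scaled to length and library size) against at least 46.7 TPM in the wt. The CRISPR control at D15 stood apart from the wt in the members, as given below. In the E8 wt libraries the 10 pluripotency markers summed to 13653 to 13689 TPM at D7 and 17251 to 18108 TPM at D15 (9354 to 10307 TPM in Tsix-stop wt at D15). Their visceral and parietal endoderm, fibroblast and cardiac muscle sums at D15 were 31.6 to 33.3, 286 to 302, 465 to 494 and 31.0 to 31.5 TPM, each below the Tsix-stop wt at D15. In the E8 KO the pluripotency sum was 4837 to 4954 TPM at D7. Its visceral and parietal endoderm markers summed to 1396 to 1404 and 4444 to 4446 TPM, against 29.8 to 31.2 and 243 to 259 TPM in the wt.

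Mgp and Srpx2 were nearly silent in every Tsix-stop library other than the 2 wt libraries at D15. Mgp, on the minus strand of chromosome 6 (chr6:136872435-136875823, GRCm38), had 0 counts in all 5 libraries at D0. In the wt at D15 it reached 11.96 and 16.2 CPM from 799 and 925 counts, while the KO libraries at D15 held 5 and 4 counts (0.0864 and 0.0726 CPM). The wt and KO libraries did not overlap, and the ratio of the mean levels was 177, a value that follows from how the gene was chosen.

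Srpx2 lies on the plus strand of the X chromosome (chrX:133908426-133932446, GRCm38) and is the only X-linked member. It had 0 counts in 4 of the 5 libraries at D0 and 2 counts in wt replicate 2. At D15 the wt libraries held 645 and 556 counts (9.66 and 9.71 CPM) and the KO libraries 5 and 2 counts (0.0864 and 0.0363 CPM), a ratio of mean levels of 158 that again was selected. In the CRISPR control at D15 Mgp had 2 counts and Srpx2 had 1 count, under the floor of 3 counts and too few to rank against the KO libraries. The wt libraries that set the choice are the ones the control would be compared with, so no ratio is read from it.

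The 250 bases before the start of Srpx2 (RefSeq, GRCm38.p6, chrX:133908175-133908424, plus strand) are shown because it is the gene chosen by its fall for which a window was at hand, with its E-boxes (CANNTG, searched on both strands) in capitals.
Srpx2: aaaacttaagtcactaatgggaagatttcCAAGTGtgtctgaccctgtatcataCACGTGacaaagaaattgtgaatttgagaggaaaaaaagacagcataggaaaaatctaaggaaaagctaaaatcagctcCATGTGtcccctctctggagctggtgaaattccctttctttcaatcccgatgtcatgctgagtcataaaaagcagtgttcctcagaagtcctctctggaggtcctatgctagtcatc
The window holds 3 E-boxes, at 221 to 216, 196 to 191 and 117 to 112 bases before the start, and 66.2% of the 32851 promoter windows of the same length hold at least 1. A match is a description of letters and not a site shown to be used. No window was at hand for Mgp, Dcn, Lum, Thy1 or Tagln.

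**Figure D1:**
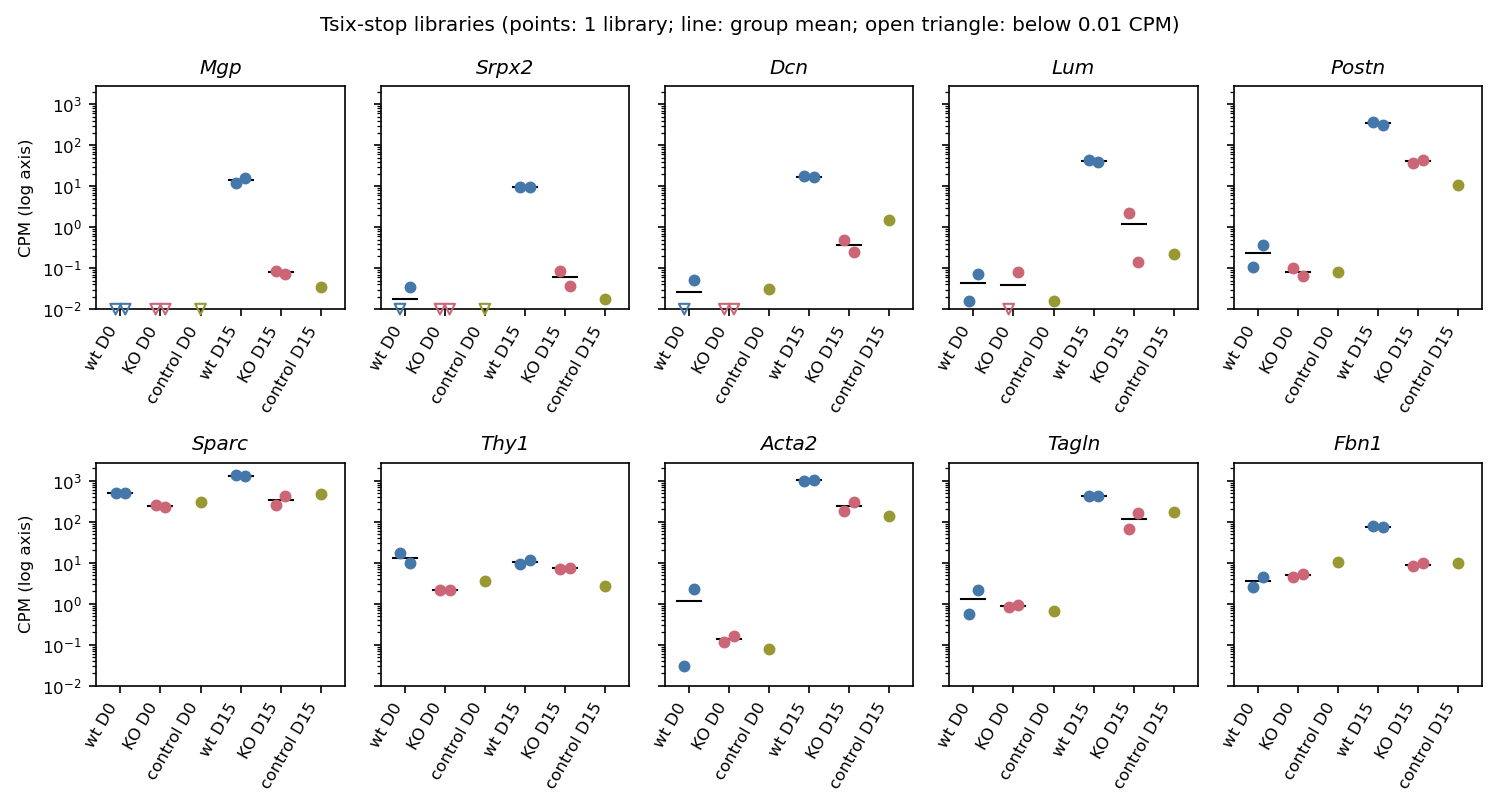
Level of each of the 10 genes in the 10 Tsix-stop libraries, as CPM on a log axis, by group (blue wt, red KO, olive CRISPR control; line, mean of 2 libraries; open triangles, libraries below 0.01 CPM). The wt libraries at D15 lie above both KO libraries and the control library in all 10 panels, by the least for Thy1.

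Differentiation of the wt raised nearly the whole group. Calls were made with edgeR at a Benjamini-Hochberg adjusted p of at most 0.1 and a change of at least 2-fold, and 9 of the 10 members were called higher at D15 than at D0, where 24.2% of the 13121 genes tested were. The median log2 difference of the 10 was 9.26 (8.29 with genes at the floor set to their bound), against 0.02 over all genes tested. Mgp, Srpx2, Dcn and Lum reached the 2.5 CPM filter through the wt D15 libraries alone, and Postn, Acta2 and Tagln through D15 libraries alone, so these 7 had to differ. Of the other 3, Sparc and Fbn1 were called and Thy1 was not. Without either wt D15 library Mgp, Srpx2, Dcn and Lum were no longer tested and 5 of 6 were called. Bulk libraries cannot tell more cells of a type from more RNA per cell.

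Mgp, with 0 counts at D0, was at least 283-fold higher at D15, against a floor of 3 counts per library. For Srpx2 and Dcn, with 2 and 3 counts in the wt at D0, the ratios of D15 to D0 were 549 (95% counting interval 162 to 4861) and 652 (239 to 3393). These 3 genes were thus at or below the floor before differentiation. The wt D15 levels of Mgp and Srpx2 were part of how these genes were chosen, so their ratios are a description only.

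Postn rose by 10.62 (SE 0.34) on the log2 scale, Acta2 by 9.95 (SE 0.96), Tagln by 8.46 (SE 0.63) and Fbn1 by 4.51 (SE 0.26). Sparc was already among the abundant genes at D0 (496 and 492 CPM) and rose to 1400 and 1293 CPM, a log2 difference of 1.53 (SE 0.22, edgeR adjusted p = 0.000273). Thy1 was the member not called: 16.9 and 9.72 CPM at D0 and 9.12 and 11.9 CPM at D15, so the days overlap, and its log2 difference was -0.26 (SE 0.28).

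Most of the group also rose in the KO, where Postn, Acta2 and Tagln again passed the filter through D15 libraries alone and so had to differ. At D15 against D0, 8 of the 10 members were called higher, where 20.0% of the genes tested were, and the median log2 difference was 5.11 (2.36 with genes at the floor set to their bound). Mgp, Srpx2, Dcn and Lum were tested only through the wt D15 libraries, and the KO D15 values of Mgp and Srpx2 were part of how they were chosen. Of the members that passed the filter also at D0, Thy1 was called, and Sparc and Fbn1 were not. The calls for Mgp and Srpx2 rest on 4 to 5 and 2 to 5 counts per library, with mean levels 1.61 and 1.24 times the floor at D0. Srpx2 in KO D15 replicate 2, with 2 counts, lay below that floor. Without KO D15 replicate 1 the calls of Lum and Srpx2 were lost, and without either wt D15 library 4 of the 6 members still tested were called. Acta2 rose from 0.118 and 0.1597 to 183 and 301 CPM, Tagln from 0.828 and 0.942 to 68.2 and 160 CPM, and Postn from 0.101 and 0.0639 to 37.5 and 43.1 CPM. Thy1 rose as well, by 1.82 on the log2 scale (SE 0.30, edgeR adjusted p = 0.000942). Sparc (0.49, SE 0.21) and Fbn1 (0.92, SE 0.23) stayed under the 2-fold limit, and Fbn1 passed it without KO D0 replicate 2 (1.05) or KO D15 replicate 1 (1.03).

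At D15, 7 of the 8 members that were not chosen by this contrast were called lower in the KO than in the wt, and none was called higher, where 11.1% of the 13121 genes tested were called lower and 3.83% higher. The median log2 difference of the 8 was -2.64, against -0.00 over all genes. Dcn and Lum passed the filter through the wt D15 libraries alone and so had to differ, and of the other 6, 5 were called. Without either wt D15 library these 2 were no longer tested and 4 of 6 were called (Fbn1, Postn, Sparc and Tagln).

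The proteoglycan genes fell furthest among these 8. Dcn, on chromosome 10 (chr10:97479609-97518143, plus strand), stood at 17.4 and 17.1 CPM in the wt and 0.483 and 0.254 CPM in the KO, and Lum, its neighbour on the same strand (chr10:97565128-97572703), at 44.2 and 39.9 CPM against 2.25 and 0.145 CPM. No library of 1 genotype overlapped the other, and the log2 differences were -5.61 (SE 0.48) and -5.20 (SE 0.87). Both genes passed the filter through the wt D15 libraries alone and so had to differ. Their values and their rank among the 8 are therefore a description only. The KO libraries of Lum, which come from different clones, lay further apart from each other than those of any other member.

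Among the matricellular genes, Postn (chr3:54361109-54391037, plus strand) stood at 374 and 321 CPM in the wt and 37.5 and 43.1 CPM in the KO. Sparc (chr11:55394500-55423183, minus strand) stood at 1400 and 1293 CPM against 251 and 421 CPM. The genotypes were separate in both, with log2 differences of -3.18 (SE 0.22, edgeR adjusted p = 0.00012) and -2.07 (SE 0.22, adjusted p = 0.000502). Fbn1 (chr2:125300594-125507993, minus strand) stood at 78.1 and 73.7 CPM in the wt and 8.39 and 9.68 CPM in the KO, a log2 difference of -3.14 (SE 0.24, adjusted p = 0.000161).

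The contractile genes were also lower, with separate genotypes. Acta2 (chr19:34241090-34255590, minus strand) stood at 1012 and 1027 CPM in the wt and 183 and 301 CPM in the KO, and Tagln (chr9:45929619-45936058, minus strand) at 438 and 430 CPM against 68.2 and 160 CPM. The log2 differences were -2.14 (SE 0.66, edgeR adjusted p = 0.0345) and -1.99 (SE 0.45, adjusted p = 0.0114). The Acta2 call was lost with DESeq2 (adjusted p = 0.258), without either wt D15 library (0.116 and 0.126) and without KO D15 replicate 1 (0.133). Thy1 (chr9:44043384-44048579, plus strand) was the member not called, at 9.12 and 11.9 CPM in the wt and 7.22 and 7.42 CPM in the KO, a log2 difference of -0.59 (SE 0.28, adjusted p = 0.135).

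The CRISPR control clone was low as well. The labels and the study's methods call it a control, whereas the names under which its libraries were deposited call them KO, and the labels were followed. Its single D15 library lay at least 2-fold below the wt mean in all 10 members. High wt D15 values set the choice of Mgp and Srpx2 and alone carried Dcn and Lum past the filter, so these 4 are left out of the comparison. Among the genes tested, 7.43% of 13121 lay as far below, as did the other 6 members (Postn, Sparc, Thy1, Acta2, Tagln and Fbn1). With 1 library and the same wt libraries in both comparisons there is no test. The control lay below both KO libraries for Postn, Thy1 and Acta2, between them for Lum, and above both for Dcn, Sparc, Tagln and Fbn1. Mgp and Srpx2, under the floor of 3 counts in the control, are not ranked. Dcn stood at 1.54 CPM, Lum at 0.225 CPM, Postn at 10.5 CPM and Sparc at 490 CPM in this library. Acta2 stood at 136 CPM, Tagln at 174 CPM, Fbn1 at 10.1 CPM and Thy1 at 2.75 CPM. With the control libraries added to the wt group, 4 of the 8 members were called at D15 (Dcn, Fbn1, Sparc and Tagln). The median pseudo-129 share of X-linked genes in this library was 32.9%, near the 29.3% and 31.6% of the wt and below the 45.6% and 41.3% of the KO.

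**Figure D2:**
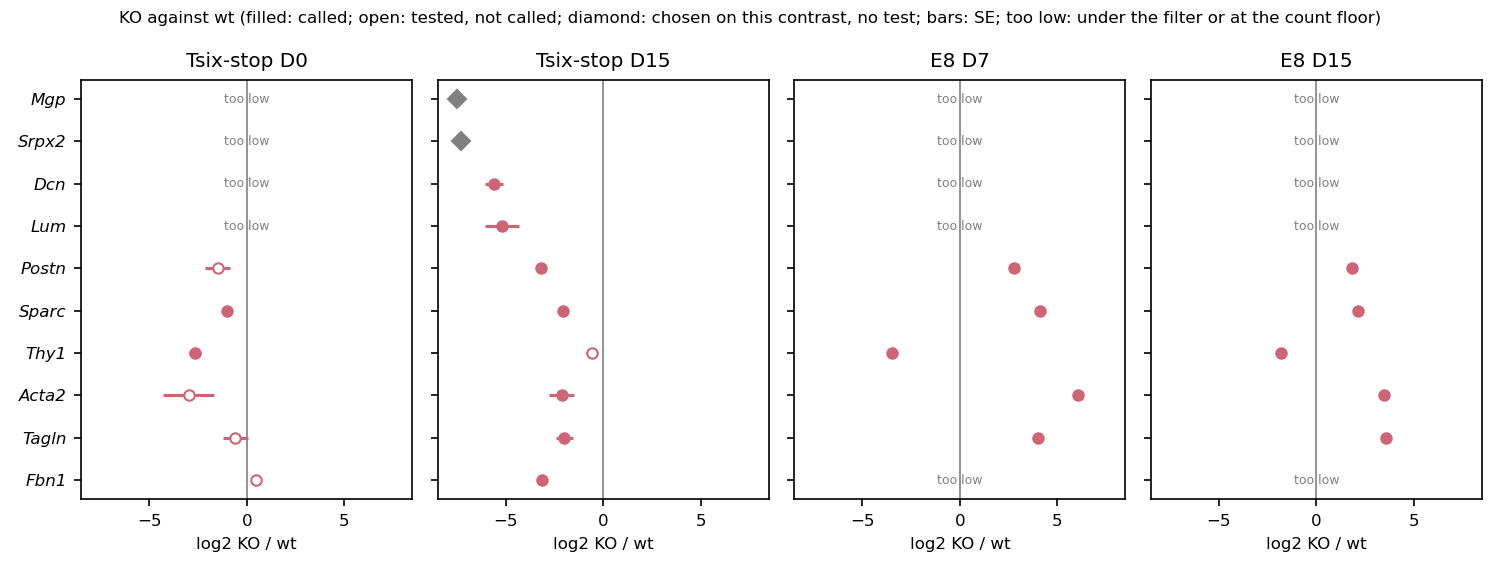
Fitted log2 difference of KO against wt for each gene in Tsix-stop cells at D0 and D15 and in E8 cells at D7 and D15 (bars, SE; filled circles, called; open circles, tested and not called; grey diamonds, chosen on this contrast and not tested; too low, under the filter or at the count floor). The tested genes lie left of 0 in Tsix-stop cells at D15, and in E8 cells right of 0 apart from Thy1.

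Before differentiation the genotypes differed in 2 members. At D0, Sparc and Thy1 were called lower in the KO, 2 of 10 members where 5.01% of the genes tested were. Mgp, Srpx2, Dcn and Lum, with at most 5 counts per library at D0, were too low for a useful test there, which leaves 6 members. Thy1 stood at 16.9 and 9.72 CPM in the wt and 2.13 and 2.14 CPM in the KO, a log2 difference of -2.67 (SE 0.30, edgeR adjusted p = 0.00173), and the CRISPR control at 3.61 CPM was nearer to the KO. Sparc stood at 496 and 492 CPM against 259 and 235 CPM, with 297 CPM in the control, and its log2 difference of -1.03 (SE 0.21, adjusted p = 0.0184) fell just short of the limit without the filter on low counts (-0.998) and without KO D0 replicate 2 (-0.945). Both calls were lost when the control was added to the wt. Without wt D0 replicate 1 the count was 4, with Acta2 and Postn added, and without KO D0 replicate 2 it was 1.

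For Acta2 the D0 level was set by 1 library. The wt held 2 counts in replicate 1 and 127 counts in replicate 2, against 7 and 10 counts in the KO, so the groups overlapped (log2 difference -2.98, SE 1.31, edgeR adjusted p = 0.174). The difference was called without wt D0 replicate 1 (-4.00) and without the filter on low counts (-2.96). Of the 36 reads of Acta2 with a SNP in wt D0 replicate 2, 91.7% carried the pseudo-129 allele (95% Wilson interval 78.2 to 97.1), against 47.7% and 48.3% in the wt at D15. In the wt at D0 the share of Fbn1 was 72.5% and 73.8%, against 41.1% and 40.6% at D15. Thy1 also leaned to the pseudo-129 allele at D0, as given below. Sparc did not in the wt, at 47.5% and 48.1% at D0 against 52.8% and 53.0% at D15. Its D0 share was higher in the KO (62.9% and 56.7%) and in the control (55.6%). The D0 share of Fbn1 was 52.4% and 59.3% in the KO and 65.8% in the control. The cells had been plated on gelatin to remove MEFs before use, and a contribution of remaining MEFs to the D0 libraries was not tested. Postn, with 7 and 21 counts against 6 and 4, Tagln and Fbn1 were not called, and Mgp, Srpx2 and Dcn had at most 3 counts in every wt and KO library and Lum at most 5.

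The effect of the KO differed between the days for 3 of the 8 members not chosen by the D15 contrast. Fbn1 and Sparc fell more at D15 than at D0, by -3.59 (SE 0.33, edgeR adjusted p = 0.000672) and -1.05 (SE 0.30, adjusted p = 0.0379) on the log2 scale, where 10.5% of the genes tested were called lower in this difference. Thy1 went the other way, by 2.08 (SE 0.40, adjusted p = 0.00941), where 6.62% were called higher. The Sparc call was lost without any 1 of 4 libraries (wt D0 replicate 1, wt D15 replicate 1, KO D0 replicate 1 and KO D15 replicate 1), with values from -1.05 to -0.688. For Acta2 the difference was 0.83 (SE 1.56) and turned to -4.21, a called value, without wt D0 replicate 2. The count was 6 without that library, 5 without KO D15 replicate 2, 2 without wt D15 replicate 1 or KO D0 replicate 1, and 0 with the control added to the wt.

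Levels of different genes can be compared only per length of transcript, as TPM. In the wt at D15 the order was Acta2 (1848 ± 40.4 TPM, SD, n = 2), Sparc (1417 ± 125), Tagln (869 ± 39.0), Postn (159 ± 22.1), Lum (68.5 ± 7.1), Mgp (47.0 ± 8.4), Fbn1 (24.9 ± 1.8), Thy1 (13.9 ± 2.1), Srpx2 (13.2 ± 0.37) and Dcn (11.8 ± 0.50). Thy1 and Srpx2 were the only neighbours whose libraries overlapped. In the KO at D15 Acta2 still led (420 ± 159 TPM) before Sparc (338 ± 133) and Tagln (220 ± 132), and the libraries of these 3 overlapped from each gene to the next. Lum, Mgp, Dcn and Srpx2 came last there, at 1.8 TPM or less on average.

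Reads that cover a SNP between the strains show which allele a transcript came from, and the intervals given cover counting error only. Srpx2 was read from the cast allele in the wt at D15: 0 of 43 SNP reads in replicate 1, which allows a pseudo-129 share of up to 6.98%, and 1 of 36 in replicate 2 (2.78%, 95% Wilson interval 0.492 to 14.2) carried the pseudo-129 allele. These shares lay below the median pseudo-129 share of X-linked genes in the same libraries, 29.3% and 31.6%. In the KO at D15 Srpx2 had no SNP read, so no share can be given.

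Mgp is autosomal and was read from both alleles, with a pseudo-129 share of 32.6% (28.7 to 36.7) and 39.2% (35.3 to 43.3) in the wt at D15, where the median over autosomal genes was 50.0% in both libraries. The KO gave 3 SNP reads of Mgp per library, all of them cast. Fbn1 also leaned to cast in the wt, at 41.1% (38.3 to 43.9) and 40.6% (37.6 to 43.7), and in the KO stood at 44.3% (34.9 to 54.2) and 52.2% (43.1 to 61.1).

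Acta2 kept nearly the same share while its level fell, at 47.7% and 48.3% in the wt and 47.2% and 45.2% in the KO, and Postn, Sparc and Tagln lay between 52.8% and 57.3% in all 4 libraries. Thy1 leaned to the pseudo-129 allele, at 72.1% (65.8 to 77.6) and 69.7% (63.9 to 74.9) in the wt and 60.1% (52.7 to 67.1) and 42.2% (34.9 to 50.0) in the KO. At D0 the Thy1 share was 78.4% and 83.3% in the wt and 85.4% and 94.5% in the KO.

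**Figure D3:**
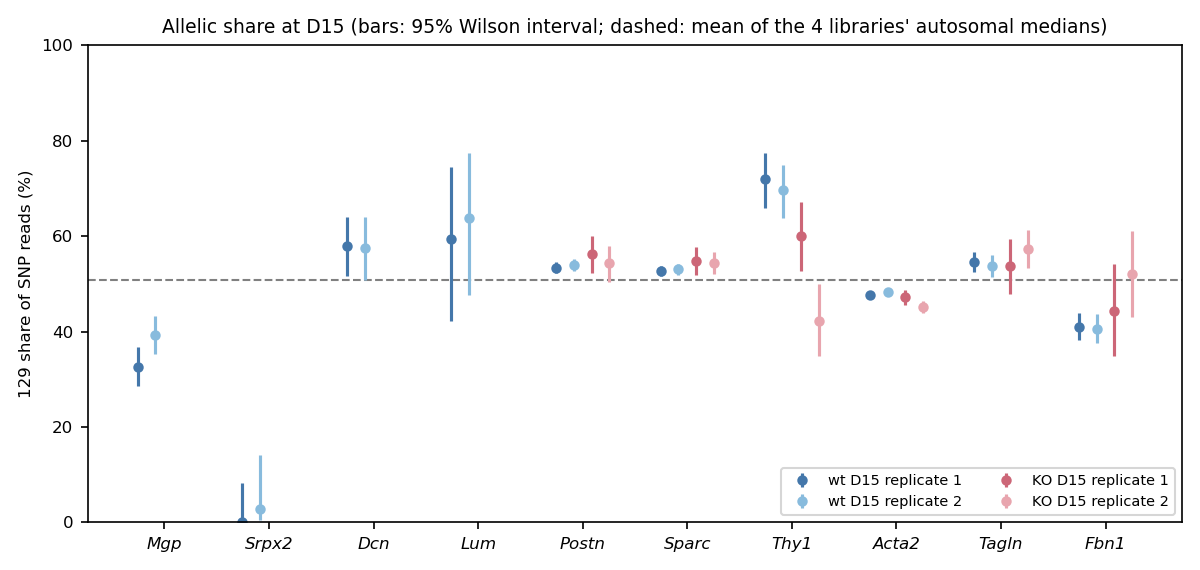
Share of SNP reads from the pseudo-129 allele for each gene in the wt (blue) and KO (red) Tsix-stop libraries at D15, in percent (bars, 95% Wilson interval; libraries with under 20 SNP reads left out; dashed line, mean of the autosomal medians of the 4 libraries). Srpx2 lies near 0 and Mgp at 32.6% and 39.2% in the wt, and the KO points of Thy1 lie below its wt points.

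Genes of the same matrix and contractile families were lower at D15 too, against the 11.1% of all genes tested that were called lower. Some of them passed the filter through the wt D15 libraries alone and so had to differ, and each list is given with and without these genes. Of the 11 small leucine-rich proteoglycan genes other than Dcn and Lum, 5 could be tested and all 5 were called lower in the KO, with a median log2 difference of -4.62. Of these 5, 4 passed the filter through the wt D15 libraries alone, and the remaining one was Bgn. Fmod (fibromodulin), Bgn (biglycan) and Ogn (osteoglycin) led, at -6.69, -4.88 and -4.62. Bgn, the most abundant of them, stood at 199 and 191 CPM in the wt, 3.97 and 9.93 CPM in the KO and 13.8 CPM in the control.

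Of 17 elastic fibre and microfibril genes, 14 were called lower and none higher, with a median of -1.79 (13 of the 16 that passed also elsewhere). Mfap4, a microfibril-associated protein, fell from 35.9 and 37.9 CPM to 1.38 and 1.56 CPM (log2 difference -4.72, SE 0.23, edgeR adjusted p = 3.09e-05), and Fbln5 (fibulin-5) and Fbn2 (fibrillin-2) had log2 differences of -4.06 and -3.49. Of 15 matricellular genes 11 were called lower (6 of the 10 that passed also elsewhere), led by Sparcl1, Spon2 and Smoc2 (-4.98, -3.80 and -3.28), and 2 were called higher, Nov (1.35) and Spp1 (1.19), both named after their values were seen.

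Of 15 smooth muscle contractile genes tested, 10 were called lower with a median of -1.19 (8 of the 13 that passed also elsewhere), led by Actg2 (enteric smooth muscle actin), Mylk (myosin light chain kinase) and Des (desmin) at -4.42, -3.96 and -3.11. The list summed to 2051 to 2146 TPM in the wt at D15 and 735 to 1274 TPM in the KO. The control, at 1732 TPM, lay between them. Srf, which encodes the serum response factor that drives many contractile genes, was named after its values were seen and was not called (-0.08, SE 0.12, edgeR adjusted p = 0.605).

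None of the genes of the next 3 lists passed through the wt D15 libraries alone. Of 7 tested genes of the Gla protein, vitamin K cycle and BMP list, 4 were called lower (median -1.61), among them Bmp2 (-2.54), Gas6 (-1.66) and Bmp4 (-1.65), and Bmp4 in the control (113.5 CPM) lay above the wt (88.3 and 85.6 CPM). Of 4 tested genes of the Srpx family and of proteins bound by Srpx2, 3 were called lower: Plau (urokinase, -1.90), Plaur (its receptor, -1.77) and Adamts4 (-1.35). Of 7 genes of the TGF-beta list, 6 were called lower (median -1.98), led by Tgfb3 (-3.07), Tgfb1 (-2.46) and Tgfbr3 (-2.12).

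**Figure D4:**
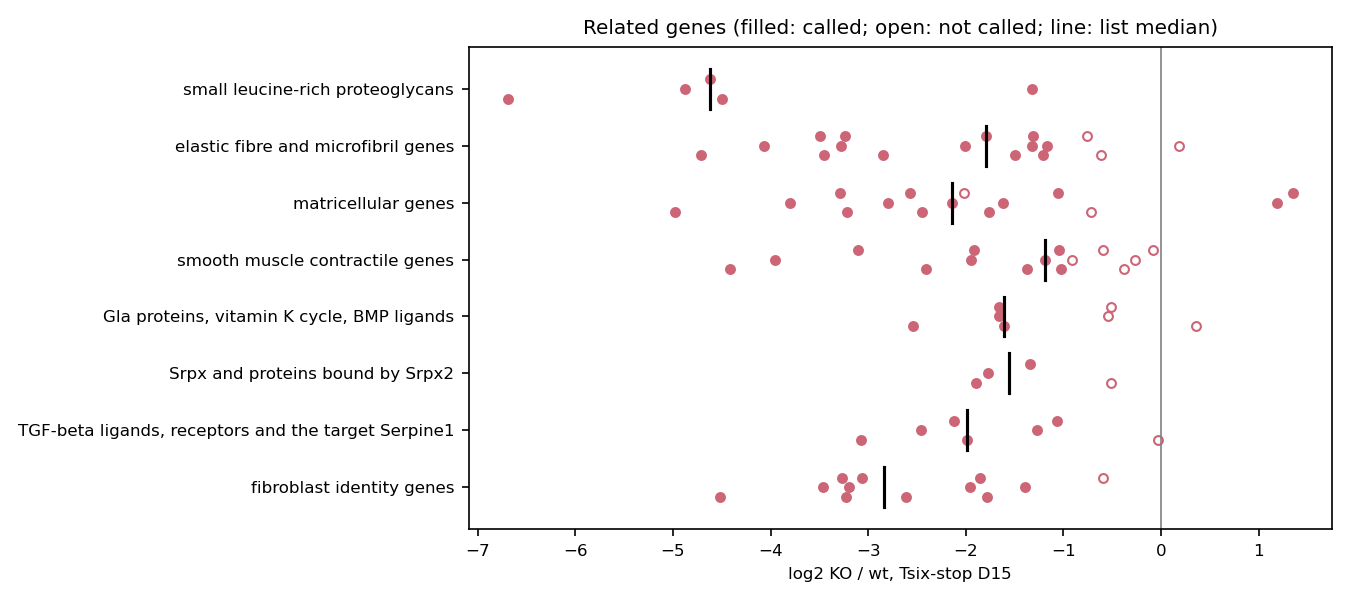
Fitted log2 difference of KO against wt in Tsix-stop cells at D15 for the tested genes of 7 related lists and of the fibroblast identity list (1 point per gene; filled, called; open, not called; black line, list median). The list medians lie between -4.62 and -1.19, and the only called points right of 0 are the matricellular genes Nov and Spp1.

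Markers of several cell types moved in the same direction at D15, where 11.1% of all genes tested were called lower and 3.83% higher. Of 12 tested fibroblast identity genes 11 were called lower in the KO (9 of the 10 that passed the filter also elsewhere than in the wt at D15), and their summed level was 4371 to 4889 TPM in the wt, 800.3 to 1125 TPM in the KO and 1195 TPM in the control. Visceral endoderm markers (7 of 9 lower, 5 of 7 that passed also elsewhere) summed to 893 to 1002 TPM in the wt, 36.4 to 70.2 TPM in the KO and 35.9 TPM in the control, and parietal endoderm markers (7 of 9 lower) to 1843 to 2101, 649 to 690 and 848 TPM. Cardiac muscle markers (5 of 7 lower, 3 of 5 that passed also elsewhere) summed to 137 to 171 TPM in the wt and 43.8 to 52.9 TPM in the KO, with 34.1 TPM in the control, and 3 of 7 endothelial markers were lower. Pluripotency markers summed to 9354 to 10307 TPM in the wt and 12419 to 15473 TPM in the KO, against 8963 TPM in the control, with 3 of 10 called higher (Klf2, Sox2 and Zfp42). Of 5 tested neural markers 2 were higher (Tubb3 and Map2) and 1 lower (Nes). The part of a changed cell mixture in the members' fall was not tested.

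The genes whose levels followed Mgp and Srpx2 most closely over the 10 Tsix-stop libraries were higher in the wt at D15 than in any other library. By Pearson's r of log2 CPM, the 5 closest to Mgp were F13a1 (0.996), Psd (0.990), Tvp23b (0.988), Ptn (0.988) and Spp2 (0.985). Those closest to Srpx2 included F13a1 (0.991), Col14a1 (0.991), Ptn (0.987) and Fmod (0.984), and Mgp and Srpx2 had an r of 0.992 with each other. The 10 libraries form a cluster of 2 and a cluster of 8, so these values say little more than that the genes share this split, and Tvp23b, at 63.4 to 68.7 CPM in the wt at D15, still stood at 43.2 to 44.0 CPM in the KO. Ptn, which encodes the secreted growth factor pleiotrophin, stood at 66.8 to 68.0 CPM in the wt at D15, at 2.12 and 1.78 CPM in the KO and at 1.38 CPM in the control. Over the 8 E8 libraries, where Mgp and Srpx2 are near 0, r for these pairs ran from -0.29 to 0.78.

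In E8 cells the direction was the opposite for 4 of the 5 members that could be tested. Mgp (at most 0.898 TPM in any library), Srpx2 (0.101), Dcn (0.263), Lum (0.768) and Fbn1 (2.25) were under the filter of 2.5 TPM in 2 libraries. Postn and Acta2 passed it through the KO libraries alone and so had to differ. The tests used limma on log2(TPM + 1), a scale that understates the change of low genes, and depth is unknown for these files. Nothing says that the 2 libraries of a group are separate cultures, so the p-values measure the spread between these libraries only, which was small (median absolute log2 difference 0.0399 to 0.0688).

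**Figure D5:**
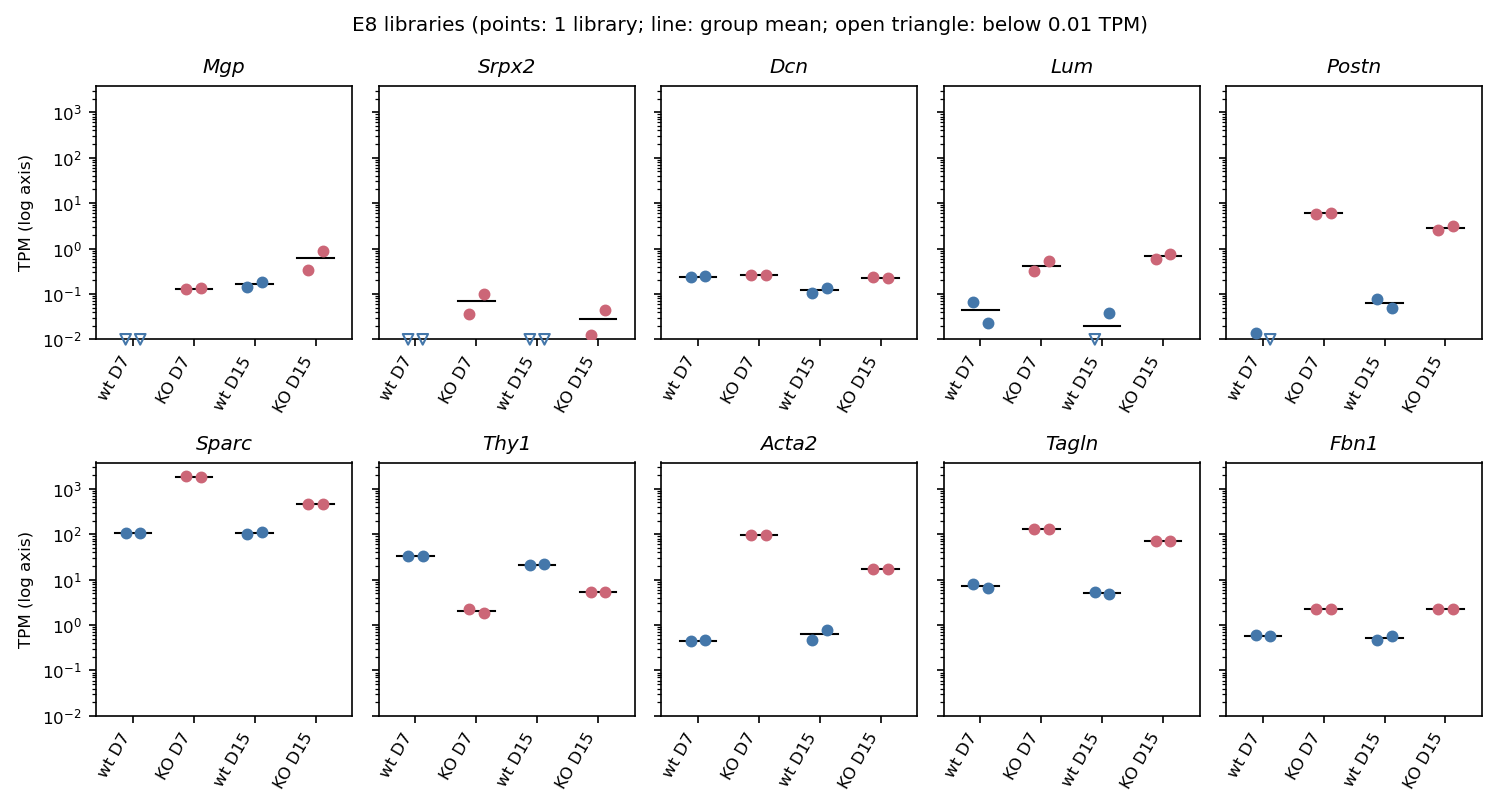
Level of each of the 10 genes in the 8 E8 libraries, as deposited TPM on a log axis, by group (blue wt, red KO; line, mean of 2 libraries; open triangles, libraries below 0.01 TPM). Acta2, Tagln, Sparc and Postn lie higher in the KO than in the wt on both days, and Thy1 lies lower.

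At D7, 4 members were called higher in the KO, where 11.4% of the 12452 genes tested were, and 1 lower, where 6.18% were. Of these 4, Acta2 and Postn had to differ by the filter, and Sparc and Tagln passed it also in the wt. Acta2 stood at 0.434 and 0.462 TPM in the wt and 97.2 and 94.0 TPM in the KO (log2 difference 6.06, SE 0.09). Sparc stood at 107.6 and 107.0 TPM against 1893 and 1804 TPM (4.09, SE 0.05), and Tagln at 7.81 and 6.54 TPM against a mean of 128.9 TPM (SD 0.115, n = 2), a log2 difference of 3.995 (SE 0.07). Postn stood at 0.014 and 0 TPM against 5.84 and 6.13 TPM (2.79, SE 0.09). The genotypes were separate in all of these, and in Thy1, which fell from 32.4 TPM in both wt libraries to 2.21 and 1.86 TPM (-3.46, SE 0.06).

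At D15 the same 4 genes were called higher in the KO, where 7.67% of the genes tested were, and Thy1 lower, where 3.08% were. Acta2 and Postn, which passed the filter through the KO libraries alone, are a description here too. Acta2 stood at 0.475 and 0.782 TPM in the wt and 16.7 and 17.1 TPM in the KO, Tagln at 5.29 and 4.93 TPM against 71.9 and 71.3 TPM, and Sparc at 99.3 and 110.9 TPM against 458 and 472 TPM. Postn stood at 0.0768 and 0.0496 TPM against 2.52 and 3.09 TPM. The groups did not overlap in any of them, and the log2 differences were 3.46 (Acta2), 3.57 (Tagln), 2.14 (Sparc), 1.84 (Postn) and -1.80 (Thy1, 20.9 and 21.6 TPM in the wt and 5.44 and 5.32 TPM in the KO).

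The E8 KO effect was smaller at D15 than at D7 for Acta2 (-2.60, SE 0.12, limma adjusted p = 4.97e-06) and Sparc (-1.96, SE 0.08), 2 members where 3.36% of the genes tested were called lower in this difference. For Thy1 it moved by 1.66 (SE 0.08), where 3.89% were called higher. The effect was smaller at D15 for Postn (-0.96) and Tagln (-0.42) too, both under the limit of 1. Within the KO, Acta2 and Sparc fell from D7 to D15 (log2 differences -2.43 and -1.99), where 2.70% of the genes tested were called lower. Postn (-0.88) and Tagln (-0.84) fell as well but stayed under the 2-fold limit, and Postn passed it with a pseudocount of 0.1 (-1.07). Thy1 rose by 1.07, where 3.41% were called higher, and that call was lost without KO D7 replicate 2 (0.989). Endoderm markers fell with Acta2 and Sparc: 9 of 10 parietal endoderm genes were called lower (median -2.20, sums from 4444 to 4446 TPM down to 1010 to 1020.0 TPM), and 9 of 10 visceral endoderm genes (median -2.08, from 1396 to 1404 TPM down to 328 to 329 TPM). Their part in these falls was not tested. In the wt no member was called between D7 and D15 by limma, where 0.586% of the genes tested were called higher and 0.819% lower. Thy1 and Tagln fell there (limma adjusted p = 0.000283 and 0.00269), but by less than 2-fold (log2 differences -0.59 and -0.42).

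In E8 the fibroblast identity list also went higher in the KO at D7, with 8 of 11 tested genes called, where 11.4% of all genes were, and a median log2 difference of 2.57 against 0.10 over all genes. Of these 11, 7 passed the filter through the KO libraries alone and so had to differ, and of the other 4, 2 were called. Col1a1, a fibrillar collagen gene chosen after its values were seen, stood at 17.3 to 17.5 TPM in the KO at D7, whereas in Tsix-stop wt cells at D15 it stood at 1459 to 1655 TPM. Visceral and parietal endoderm lists had 9 of 10 genes higher each (medians 4.99 and 3.82; 2 of 3 and 5 of 6 among the genes that passed also in the wt), and Sparc is known to be made in quantity by parietal endoderm. The part of these cells in the members' rise was not tested. Of 10 tested smooth muscle contractile genes 3 were higher and none lower at D7 (median 0.32), and 5 were higher and none lower at D15 (median 1.01), where 7.67% of all genes were higher. Levels of E8 and Tsix-stop were normalized separately and were not tested against each other.

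Allelic TPM of the E8 files are scaled separately for each allele, so a share is read only against its own median. Sparc gave a BL6 share of 2.44% to 4.62% over the 8 libraries, below the median over genes of 16.9% to 20.0% in every library. Acta2 in the KO gave 4.94% to 8.59%, also below the median, and Tagln in the KO gave 18.4% to 25.3%, near it.

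Promoter windows were at hand for 5 of the 10 genes. Those of Acta2 (chr19:34255374-34255623, minus strand) and of the downstream start of Postn (chr3:54360857-54361106, plus strand), from RefSeq on GRCm38.p6, are shown as examples. Both genes were lower in the Tsix-stop KO at D15 and higher in the E8 KO, as was Sparc, whose window is not shown. Capitals mark the TEAD element (GGAATG) and E-boxes in Acta2 and the TATA box (TATAAA) in Postn, searched on both strands.
Acta2: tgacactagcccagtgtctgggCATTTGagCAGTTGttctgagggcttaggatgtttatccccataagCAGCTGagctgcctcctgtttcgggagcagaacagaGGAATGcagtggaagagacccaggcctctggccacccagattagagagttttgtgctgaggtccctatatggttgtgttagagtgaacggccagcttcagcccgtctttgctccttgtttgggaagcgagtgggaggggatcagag
Postn: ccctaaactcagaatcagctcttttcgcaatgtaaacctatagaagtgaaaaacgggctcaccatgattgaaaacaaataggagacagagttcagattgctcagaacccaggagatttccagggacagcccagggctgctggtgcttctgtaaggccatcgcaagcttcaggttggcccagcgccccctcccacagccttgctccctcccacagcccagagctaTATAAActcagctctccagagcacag
The Acta2 window holds 3 E-boxes and 1 TEAD element, at 146 to 141 bases before the start, and the Postn window 1 TATA box, at 26 to 21 bases before the start, with no overlap between motifs. A TEAD element was found in 12.6% and a TATA box in 12.4% of all 32851 windows. The Sparc window holds 2 E-boxes and the Fbn1 window 1 GC box (GGGCGG, 32.7% of all windows). None of the 6 windows of these genes holds the CArG box by its strict letters (CC, 6 of A or T, GG, in 1.47% of all windows) or the SMAD element GTCTAGAC (0.167%), which says only that these letters are not in the 250 bases. The Acta2 window does hold ccctatatgg and ccttgtttgg, each 1 letter away from the strict CArG letters, so it cannot be read as lacking CArG-like stretches.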

How the data were processed

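Polyadenylated RNA was sequenced as 75-base single-end reads, and 18 libraries were used. For Tsix-stop the deposited values are expected counts per gene, made by the authors for the 129 and the cast genome, of which 7.1% are not whole, and those on the 129 genome were rounded here. Which allele column holds 129 was checked on X-linked genes. For E8 the authors deposited TPM, with allelic TPM scaled for each allele, so depth is unknown there. The submitters' processing notes name Bowtie2 2.4.5 and TopHat2 2.1.1.

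Genes with at least 2.5 CPM (Tsix-stop) or TPM (E8) in at least 2 libraries were tested. Tsix-stop counts were fitted with edgeR 4.0.16 (TMM, quasi-likelihood test) over 8 libraries, leaving out the CRISPR control, and E8 log2(TPM + 1) with limma 3.58.1, in R 4.3.3. Calls needed a Benjamini-Hochberg adjusted p of at most 0.1 and a 2-fold change, or 1 on the log2 scale for a difference of effects. With 2 libraries a group, an exact permutation test cannot go below p = 0.333. The fits were tested on simulated data. TPM of Tsix-stop used exon lengths, matched for 23318 symbols directly and 666 by synonym. Allelic shares needed 20 SNP reads for plotting.

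The members and lists were chosen with earlier results of these data known. All 10 members are named, with at most 3 genes from each related list (the largest changes among called genes that reached 5 TPM on average in a group) and the 5 genes closest in pattern to Mgp and to Srpx2, of which 1 is not reported here. Marker genes named beside their counts were chosen after their values were seen. Alternatives were other size factors, DESeq2 1.42.0, other filters and pseudocounts, counts on the cast genome, the control added to the wt, a replicate block and leaving out each library.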

Additional observations from a re-analysis of the deposited data

Results flagged for a closer look

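The KO effect was called different between the days, by the interaction term of the fit, for 3 members in each line. In Tsix-stop cells it was lower at D15 than at D0 by -3.59 on the log2 scale for Fbn1 (edgeR adjusted p = 0.000672) and by -1.05 for Sparc (edgeR adjusted p = 0.0379), and higher by 2.08 for Thy1 (edgeR adjusted p = 0.00941). The Fbn1 and Thy1 values kept their call in each of the 8 fits that left out 1 library, and none of the 3 was called with the CRISPR control added to the wt. In E8 cells it was lower at D15 than at D7 by -1.96 for Sparc (limma adjusted p = 2.60e-06) and by -2.60 for Acta2 (limma adjusted p = 4.97e-06), and higher by 1.66 for Thy1 (limma adjusted p = 7.33e-06). Their causes were not tested.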

How the results depend on the processing

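With the CRISPR control libraries added to the wt, the members called were 0 at D0 (2 without them), 4 at D15 (7), 5 for the KO between the days (8) and 0 for the difference of the KO effect (3), and calls over all genes fell from 1066 to 20 at D0, from 1958 to 1115 at D15 and from 2247 to 564 for the difference. A filter of 2.5 CPM in at least 4 libraries left 6 members tested, with 5 called between the days in the wt and 4 in the KO. Leaving out 1 library gave 1 to 4 members at D0, 4 to 7 at D15, 5 to 9 between the days in the wt, 4 to 9 in the KO and 2 to 6 for the difference. In E8 it gave 5 at D7 and at D15, 0 between the days in the wt, 2 to 3 in the KO and 3 to 4 for the difference. The Acta2 difference in Tsix-stop cells turned from 0.83 to -4.21 without wt D0 replicate 2, and was 1.87 and called without wt D0 replicate 1. With a replicate block the members called were 2, 7, 9, 8 and 4 in Tsix-stop (Tagln added to the last) and 5, 5, 0, 3 and 3 in E8. The deviations of same-numbered libraries correlated by -0.156 to 0.197, with the highest value between the KO at D0 and D15, and the numbers were not taken to pair the libraries. Whether a KO number marks the same clone on both days is not stated in the labels. DESeq2 called 3 members at D0 (Postn added), 6 at D15 (Acta2 lost) and 4 for the difference (Postn added).

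Without a filter on low counts, calls over all genes were 1738 at D0, 3099 at D15, 7713 (against 4965) between the days in the wt and 5665 (against 3625) in the KO, since more genes are tested, and a pseudocount of 0.1 in E8 gave 332 against 175 in the wt. Of the values of single members under the other settings, 388 stayed called or stayed not called, 13 lost the call and 6 gained it. The 388 can include values not called in either fit that changed sign. Outside the wt at D15, Mgp and Srpx2 held at most 5 counts in any Tsix-stop library. Dcn and Lum held at most 5 counts at D0 and 8 to 130 counts in the KO and control libraries at D15. With 2 libraries a group the spread is known poorly.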
